A study of Mus musculus with 2 samples.

Results

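The cytosolic ribosomal protein genes encode the protein part of the ribosome that translates nuclear-encoded mRNA. They were taken by symbol, as Rpl or Rps followed by a number and an optional letter, or as Rplp0, Rplp1, Rplp2 or Rpsa, without pseudogenes, Rps6k kinases and like-genes. The rule found 76 genes among the 31054 features of the files, 46 of the large and 30 of the small subunit. All 76 had their identifier in GENCODE vM21 (GRCm38) and lay on 19 chromosomes, with 14 on chromosome 7 and 4 on chromosome X.

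The RNA of single cells was profiled in preparations of hepatic stellate cells (HSCs), the vitamin A-storing cells that make collagen in the injured liver, obtained by enzymatic perfusion and a density gradient. There were 2 libraries, 1 per genotype, from male mice on a C57BL/6 background, and the number of mice behind each is not stated. Both groups carried R26-CAG-LSL-RSR-tdTomato-2A-DTR with p16-CreERT2 as heterozygous alleles, and both received 4 weeks of carbon tetrachloride (CCl4), with tamoxifen and diphtheria toxin. The p16-Alb-LRTD mice also carried Alb-DreERT2. Their diphtheria toxin receptor is designed to need both Cre, driven by p16, and Dre, driven by the hepatocyte gene Alb, and the p16-LRTD control mice lacked Dre. The elimination was thus aimed at hepatocytes with high p16, and not at the cells described here. The paper speculates that receptor expression may leak past its stop cassette. It saw very mild fibrosis away from the central veins only in mice that carried Alb-DreERT2 with the receptor. With 1 library per group no test between genotypes was possible, and the genotype and the library cannot be told apart. Intervals are 95% intervals of counting error alone.

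Ribosomal proteins are made in near-equal numbers, since each ribosome holds a single copy of most of them, and their mRNAs are among the most abundant of any cell. Most of these mRNAs begin with a C and a run of pyrimidines, the terminal oligopyrimidine (TOP) tract, through which mTOR signalling and the RNA-binding protein Larp1 set their translation and stability together. In the liver, stellate cells that become myofibroblasts are known for a large output of secreted matrix protein.

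Start site windows were searched for such a tract and are given for genes at the ends of the list of library ratios in stellate cells. RefSeq promoter windows (GRCm38.p6, 250 bases before to 50 after the annotated start) were found for 56 of the 76 genes. Of those among the 5 highest and 5 lowest library ratios, Rps27, Rps28 and Rpl38 are at the high end and Rps2, Rpl15, Rplp2 and Rplp0 at the low end. Each line below holds 60 bases in the gene's direction, 45 before and 15 from the annotated start, and capitals mark a run of at least 5 pyrimidines that begins with C within 10 bases of that start. They lie on the reverse strand at chr3:90213634-90213693 (Rps27), chr17:33824548-33824607 (Rps28) and chr14:18270972-18271031 (Rpl15), and on the forward strand at chr11:114668535-114668594 (Rpl38), chr17:24720018-24720077 (Rps2), chr7:141447606-141447665 (Rplp2) and chr5:115559422-115559481 (Rplp0).
Rps27: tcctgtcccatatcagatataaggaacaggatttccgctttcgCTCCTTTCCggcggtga
Rps28: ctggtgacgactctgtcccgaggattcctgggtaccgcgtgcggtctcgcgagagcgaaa
Rpl38: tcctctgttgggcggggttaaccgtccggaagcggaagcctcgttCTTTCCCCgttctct
Rps2: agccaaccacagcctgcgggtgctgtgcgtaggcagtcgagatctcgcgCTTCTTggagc
Rpl15: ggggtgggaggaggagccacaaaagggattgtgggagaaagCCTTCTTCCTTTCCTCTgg
Rplp2: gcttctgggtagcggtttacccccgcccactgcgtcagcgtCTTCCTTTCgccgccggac
Rplp0: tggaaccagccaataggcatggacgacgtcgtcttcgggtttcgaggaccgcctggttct

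Pyrimidine runs of 6 to 17 bases were found at both ends of the list, and no such run was found in the windows of Rps28 and Rplp0. Over all 66 windows of the 56 genes, some with several annotated starts, 36 (54.5%) held such a run, beside 30.7% of the 32851 promoter windows of the genome. The letters CCGGAA, on either strand anywhere in the window, were in 48.5% of the genes' windows and in 14.9% of all. CTTTCC, which can overlap the pyrimidine run, was in 50% against 26.6%, and AAGATGGCG, part of the YY1 motif, in 7.58% against 1.4%. These letters are a description of the windows and not sites of binding.

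Cells were grouped by marker sums, as ranges of a score and not as clusters. After filtering, 9004 barcodes were kept in p16-LRTD and 7416 in p16-Alb-LRTD, with median depths of 17177 and 18273 UMIs. Only 18 barcode sequences were shared between the kept cells of both libraries. Stellate cells (Lrat, Ecm1, Hgf and Reln together at least 15 per 10000 UMIs) numbered 7852 and 6622. Endothelial cells (Kdr, Stab2 and Ptprb, at least 8) numbered 430 and 284, and Kupffer cells, the resident macrophages (Clec4f, Cd5l and Vsig4, at least 8), 273 and 175. At most 23 cells of any class in a library lay within 20% above its threshold. Markers that did not enter the sums followed the classes: Dcn, Pdgfrb, Colec11, Des, Rgs5 and Bmp5 summed to a median of 263 and 285 per 10000 UMIs in stellate cells, and to 2.54 and 2.88 in endothelial cells and 2.81 and 2.70 in Kupffer cells. The endothelial check markers (Pecam1, Cdh5, Clec4g, Lyve1, Tek and Egfl7) had medians of 56.2 and 47.6 in endothelial cells and at most 6.33 elsewhere, and the macrophage ones (Adgre1, Csf1r, Cd68, Timd4, C1qa and Ptprc) 71.4 and 76.5 in Kupffer cells and 0 in the other classes.

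Of the 3 classes, stellate cells had the largest share of UMIs from ribosomal protein genes in both libraries, below that of the few kept cells under every class threshold (12.95% and 13.98%). The 76 genes took 9.94% of all UMIs in stellate cells of p16-LRTD and 10.6% in p16-Alb-LRTD. In Kupffer cells the shares were 8.19% and 7.09%, and in endothelial cells 6.75% and 5.89%. The order stellate, Kupffer, endothelial was therefore the same in both libraries, and no counting interval of neighbouring classes overlapped. Between cells of a class the spread was far wider than that error: the share per cell in stellate cells ran from 4.66% to 14.98% (5th to 95th percentile) in p16-LRTD and from 5.21% to 15.9% in p16-Alb-LRTD.

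**Figure D1:**
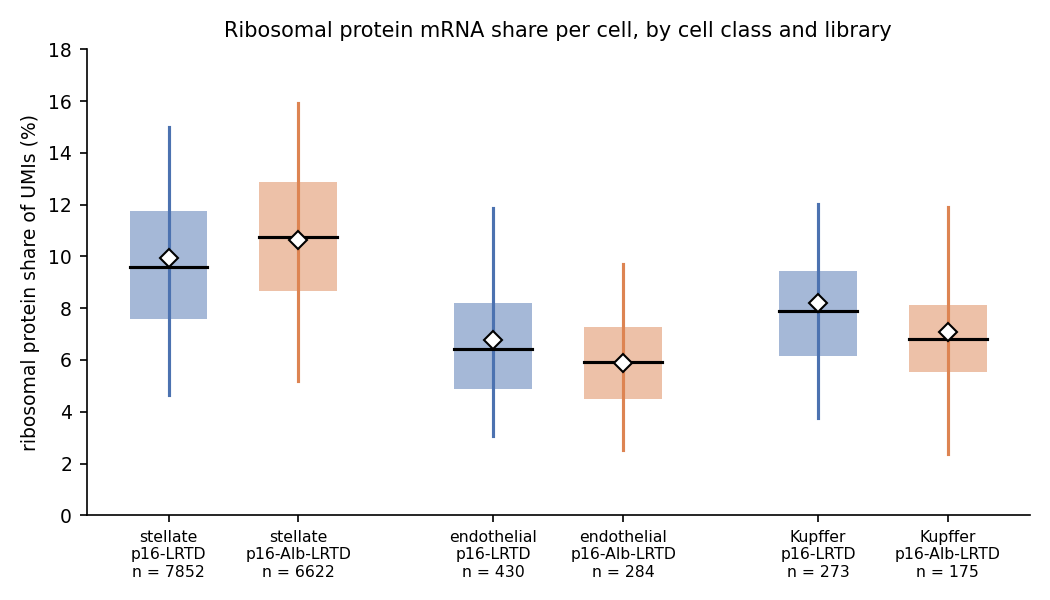
Share of a cell's UMIs that come from the 76 ribosomal protein genes (vertical axis, percent) in each cell class and library. Bars span the 25th to 75th percentile over cells, vertical lines the 5th to 95th, black lines the median, and white diamonds the share of the summed counts, which is highest in stellate cells of both libraries.

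Against the stellate cells of the same library, the endothelial share was lower by a log2 ratio of -0.56 (-0.56 to -0.55) in p16-LRTD and -0.85 (-0.86 to -0.85) in p16-Alb-LRTD. For Kupffer cells the log2 ratios were -0.28 (-0.28 to -0.27) and -0.59 (-0.59 to -0.58). In endothelial cells 65 of 76 genes in p16-LRTD and 71 in p16-Alb-LRTD were lower by a log2 ratio of at least 0.32, the threshold for a gene to count as higher or lower, beside 29.3% and 32.9% of all features at 5 CPM or more. The genes higher by it were 0 in both libraries, beside 44.9% and 42.4%. CPM is the number of UMIs of a gene per 1000000 UMIs of the summed class, and since the assay tags the 3' end of each molecule, levels were not divided by transcript length. In Kupffer cells 41 and 61 genes were lower, beside 40.3% and 41.7% of all features, and 2 and 1 were higher, beside 35% in each library. With TMM scaling, the endothelial log2 ratios became -0.84 and -1.13, and among cells under 20000 UMIs the Kupffer ratio of p16-Alb-LRTD was -0.83.

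Single genes departed from this common shift. Rps7, a small subunit protein that also binds Mdm2, showed the lowest ratio of endothelial and of Kupffer to stellate cells. It stood at 2296 and 2271 CPM in stellate cells, at 834 and 667 CPM in endothelial cells, and at 987 and 838 CPM in Kupffer cells, p16-LRTD first. Both other classes were thus below the stellate level in both libraries, with log2 ratios of -1.46 and -1.77 in endothelial and -1.22 and -1.44 in Kupffer cells. Rpl21, a large subunit protein, came next in endothelial cells, at 719 and 656 CPM against 1600 and 1798 CPM in stellate cells. Rpl39, a very small protein at the exit tunnel, was the last of the 3 lowest, at 769 and 705 against 1485 and 1714 CPM. In Kupffer cells the lowest besides Rps7 were Rpl13, with log2 ratios of -0.82 and -1.18, and Rps16, with -0.70 and -1.13.

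Other genes were nearer to the stellate level, or above it, in endothelial or Kupffer cells. Rps29, a zinc-finger protein of the small subunit, stood at 1505 and 1909 CPM in stellate cells, 1293 and 1419 CPM in endothelial cells, and 2563 and 2959 CPM in Kupffer cells. It was the gene with the highest Kupffer to stellate ratio, with log2 ratios of 0.77 (0.74 to 0.79) and 0.63 (0.61 to 0.66), and in p16-Alb-LRTD it replaced Rplp1 as the most abundant ribosomal protein mRNA of Kupffer cells. In endothelial cells its ratios to stellate cells were -0.22 and -0.43. Rpl41, the smallest ribosomal protein, stood at 1691 CPM in Kupffer against 1319 CPM in stellate cells of p16-LRTD (0.36), and at 1637 against 1360 CPM in p16-Alb-LRTD (0.27, under the threshold). Rplp2, with Kupffer to stellate ratios of 0.29 and 0.062, was the last of the 3 highest. In endothelial cells the genes nearest to the stellate level were Rps6, the substrate of S6 kinase (log2 ratios 0.080 and -0.20), Rplp2 (1093 against 1092 CPM in p16-LRTD, and a log2 ratio of -0.18 in p16-Alb-LRTD) and Rps14 (-0.17 and -0.21).

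The genotypes were compared next, within each class. In stellate cells the ribosomal protein share was higher in p16-Alb-LRTD, by a log2 ratio of 0.10 (0.098 to 0.10), whereas in endothelial cells it was lower by -0.20 (-0.20 to -0.19) and in Kupffer cells by -0.21 (-0.21 to -0.20). Of the 76 genes, 64 were above 0 in stellate cells, 6 in endothelial and 1 in Kupffer cells. For 58 of them the stellate ratio was above 0 and both others below. Their median log2 ratio was 0.11 in stellate cells against -0.05 over all 10179 features at 5 CPM or more, -0.22 in endothelial cells against -0.10 over 9880, and -0.24 in Kupffer cells against -0.06 over 9490. The difference between the classes was not tested.

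**Figure D2:**
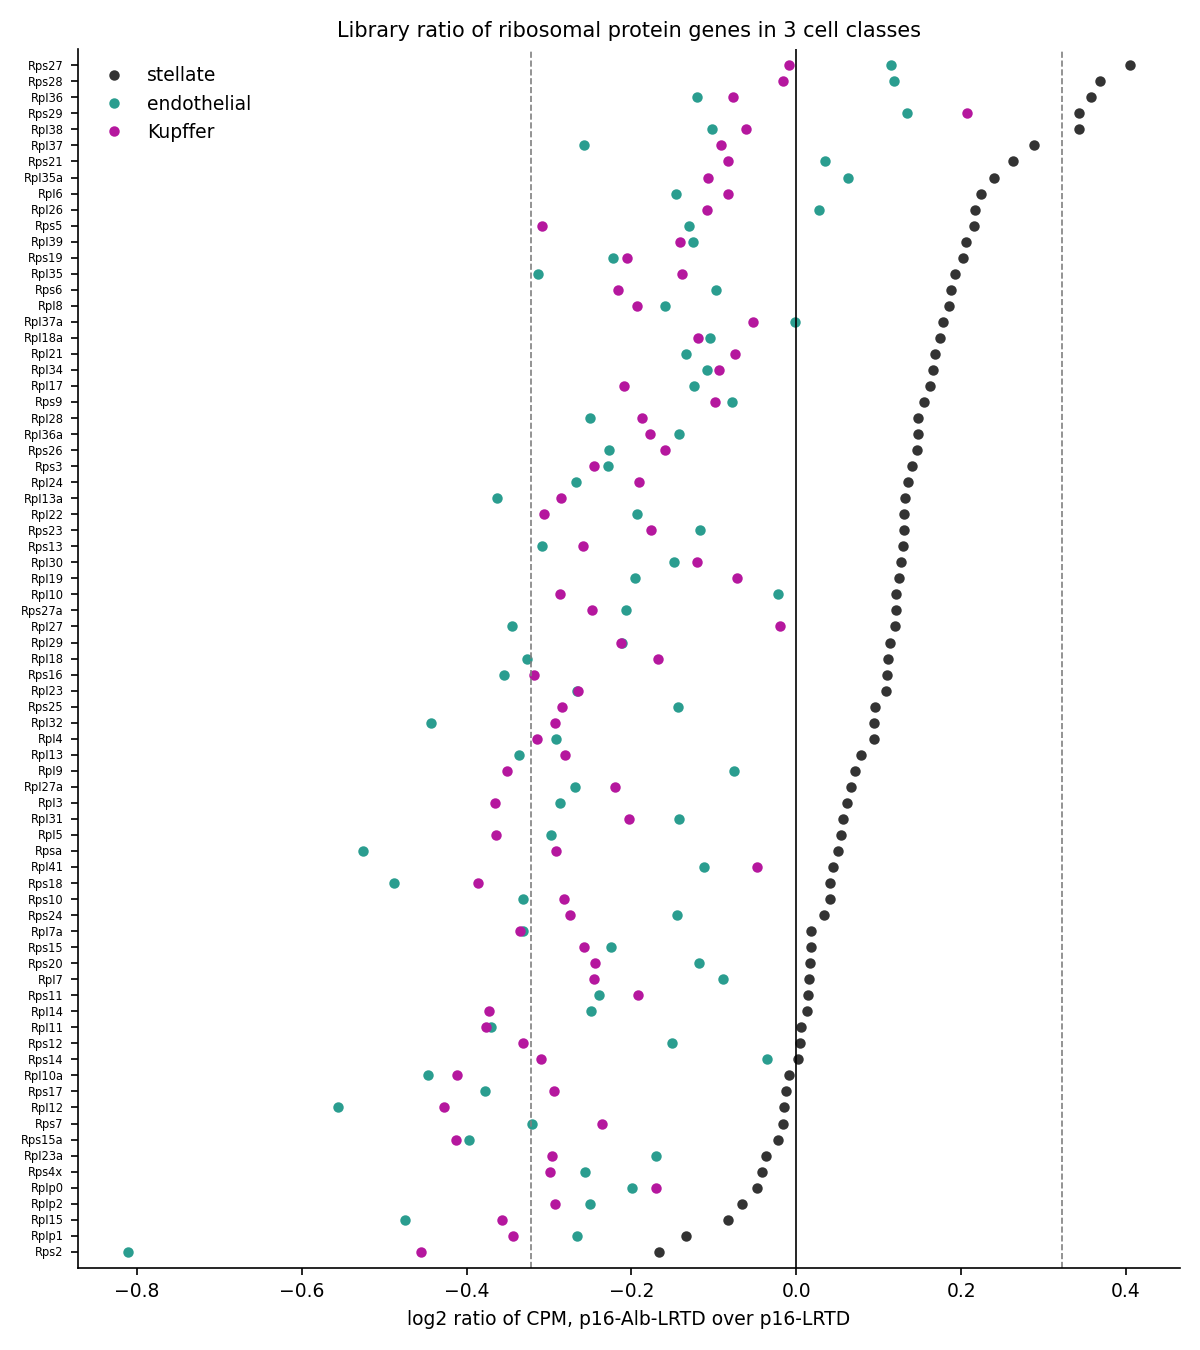
Log2 ratio of CPM, p16-Alb-LRTD over p16-LRTD, for the ribosomal protein genes (vertical axis, ordered by the stellate ratio, 1 gene not shown) in stellate, endothelial and Kupffer cells. Dashed lines mark the threshold of 0.32 in either direction; 5 stellate points lie beyond the right line, and 17 endothelial and 14 Kupffer points beyond the left line.

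Few genes stood far from 0. In stellate cells 5 genes were higher by the threshold, beside 7.22% of all features, and 0 were lower, beside 11%. The 5 were 6.58% of the 76, a share near the background. Over the alternatives run, this count went from 0 with a fold of 1.5 to 14 with equal shares of the collagen bins described below. For those settings the share of all features was not worked out. In endothelial cells 17 genes were lower (22.4%), beside 29% of all features, and 0 higher, beside 15.7%. In Kupffer cells 14 were lower (18.4%), beside 18.8%, and 0 higher, beside 12.2%. The ratios of the group spread less than those of all features, with an SD over genes of 0.11 in stellate, 0.16 in endothelial and 0.12 in Kupffer cells, beside 0.35, 0.55 and 0.44 over all features. All features were taken from 5 CPM, while the lowest of the 76 genes, Rpl13a, was at 84.8 CPM in endothelial cells of p16-Alb-LRTD. The sets were not matched for abundance, so counting error weighs more on the spread and the counts of all features.

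The endothelial and Kupffer ratios depended on how cells were assigned and scaled. With cells that met more than 1 threshold (245 and 219) kept in each class, the endothelial log2 ratio was -0.031 and 1 gene was lower by the threshold. With median-of-ratios scaling, which moved every endothelial ratio by 0.13 and every Kupffer ratio by 0.07, the log2 ratios were -0.069 and -0.14, with 5 and 4 genes lower. Other settings gave more lower genes, up to 24 in endothelial cells with 10000 to 30000 UMIs and 35 in Kupffer cells under 20000 UMIs. The share of all features was not worked out for these settings.

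The stellate difference changed with the depth of the cells. Among stellate cells under 20000 UMIs (5324 and 4285) the share was 9.65% in p16-LRTD against 11.2% in p16-Alb-LRTD, and the log2 ratio was 0.21 (0.21 to 0.21), and 74 of 76 genes were above 0. Among cells with 20000 UMIs or more (2528 and 2337) it was 10.3% and 10.0%, a log2 ratio of -0.031 (-0.033 to -0.030), and 34 genes were above 0. By bin, the ratio was 0.17 under 10000 UMIs, 0.20 from 10000, -0.037 from 20000 and -0.011 from 30000 UMIs. The direction of the pooled stellate comparison therefore turned at 20000 UMIs, a split chosen after the values were seen. Within the collagen bins described below, cells with 20000 UMIs or more had ratios above 0 (0.19, 0.16 and 0.069). The highest of these bins held 1484 such cells in p16-LRTD and 299 in p16-Alb-LRTD. In endothelial cells all 4 bins were below 0, from -0.32 to -0.031, and in Kupffer cells 3 of 4 were, the exception being cells under 10000 UMIs (0.15), with 27 and 11 cells.

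Stellate cells with more collagen mRNA had more ribosomal protein mRNA in both libraries. With Col1a1, Col1a2 and Col3a1 at 1 to under 10 per 10000 UMIs, the share was 7.31% in p16-LRTD and 8.66% in p16-Alb-LRTD. From 10 to under 50 it was 8.85% and 10.7%, and at 50 or more 11.6% and 12.3%. The library difference held within every one of these bins, with log2 ratios of 0.24, 0.27 and 0.080. The highest bin held 37.4% of stellate cells in p16-LRTD and 11.4% in p16-Alb-LRTD, and with both libraries given the same shares of the bins the log2 ratio was 0.21. Split by depth as well, all 6 combinations of bin and depth were above 0, from 0.065 to 0.36, including the 3 with 20000 UMIs or more (0.19, 0.16 and 0.069). Over cells, the Spearman correlation of ribosomal protein and collagen shares was 0.59 in p16-LRTD (n = 7852) and 0.38 in p16-Alb-LRTD (n = 6622), a description over cells that share a library and a denominator.

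**Figure D3:**
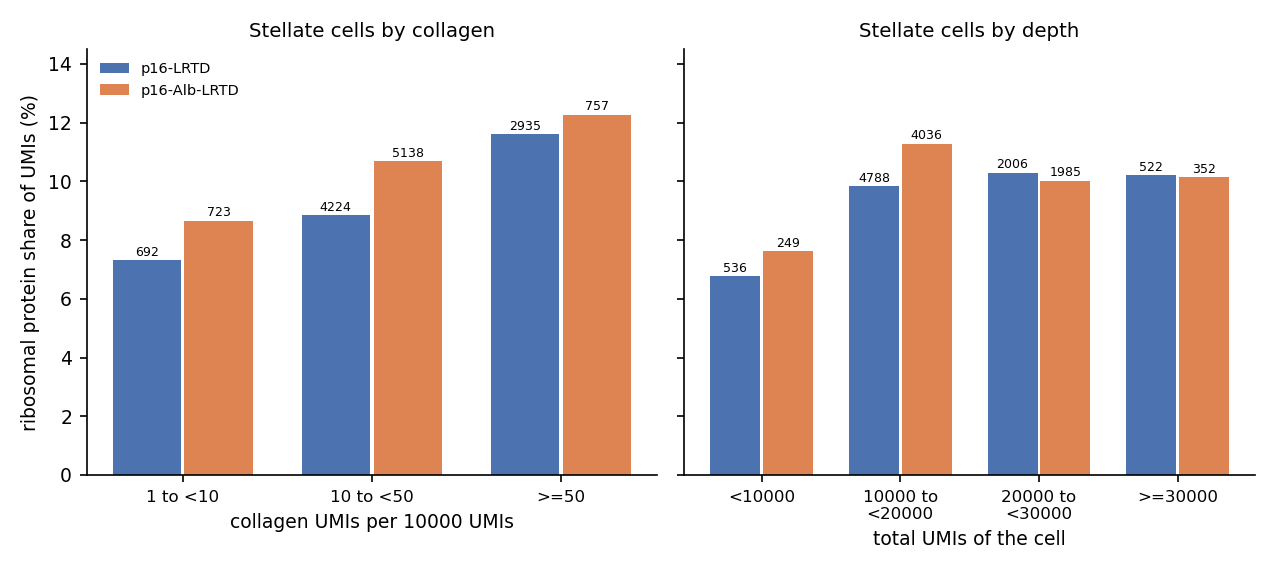
Ribosomal protein share of the summed UMIs of stellate cells (vertical axis, percent) in p16-LRTD and p16-Alb-LRTD, by the cell's collagen UMIs per 10000 UMIs (left) and by its total UMIs (right). Numbers above the bars are cells. The share rises from 7.31% to 11.6% and from 8.66% to 12.3% across the collagen bins. With cells of all collagen levels pooled, the order of the libraries turns at 20000 UMIs.

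The genes of the stalk of the large subunit, which recruits translation factors, were among the 5 lowest library ratios in stellate cells, though none was past the threshold there. Rplp0 anchors the stalk and Rplp1 and Rplp2 form its acidic arms. Rplp1 (chr9:61913284-61914542) was the most abundant of the 76 mRNAs in stellate cells, with 3182 CPM (3173 to 3192) in p16-LRTD against 2899 CPM (2890 to 2909) in p16-Alb-LRTD. Its log2 ratio was -0.13 (-0.14 to -0.13). In endothelial cells Rplp1 stood at 2069 and 1721 CPM, and in Kupffer cells at 3093 and 2437 CPM. Rplp2 had stellate levels of 1092 and 1044 CPM and Rplp0 of 1170 and 1132 CPM, with log2 ratios of -0.066 and -0.048. The ratios of all 3 were below 0 in every class, past the threshold only for Rplp1 in Kupffer cells (-0.34), and their part of the ribosomal protein UMIs of stellate cells was 5.48% and 4.77%. Among stellate cells under 20000 UMIs Rplp0 and Rplp2 had ratios above 0 (0.12 and 0.031), and so they had with equal shares of collagen bins (0.17 and 0.036, beside 0.21 for the summed share of the group), while Rplp1 was at -0.047 in the former.

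Over all cells of a class, Rps2, a small subunit protein at the mRNA entry, had the lowest library ratio in all 3 classes. It stood at 1767 and 1574 CPM in stellate cells, 1309 and 746 CPM in endothelial cells, and 1350 and 984 CPM in Kupffer cells. The log2 ratios were -0.17 (-0.18 to -0.16), -0.81 (-0.87 to -0.75) and -0.46 (-0.51 to -0.40). With the same shares of collagen bins in both libraries, the stellate ratio of Rps2 was -0.0026. It was 0.15 and 0.11 in the collagen bins of 1 to under 10 and 10 to under 50, and -0.26 at 50 or more. In the former bins, and in stellate cells under 20000 UMIs, Rplp1 had the lowest ratio. Rpl15, which lies deep in the large subunit, had ratios of -0.083, -0.47 and -0.36, though the stellate ratio was 0.083 with equal shares of collagen bins and 0.051 under 20000 UMIs.

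At the other end stood 5 small proteins. Rps27 (chr3:90212522-90213651), a zinc-finger protein of the small subunit, measured 1243 CPM (1237 to 1249) in control stellate cells. It measured 1645 CPM (1638 to 1652) in those of p16-Alb-LRTD, and the log2 ratio was 0.40 (0.40 to 0.41). Rps28, another small subunit protein, was at 1070 and 1381 CPM (0.37), Rpl36 at 785 and 1006 CPM (0.36), Rps29 at 1505 and 1909 CPM (0.34) and Rpl38, known for its role in Hox mRNA translation, at 692 and 878 CPM (0.34). These 5 made up the genes past the threshold in stellate cells, and each kept a ratio above 0 in both depth groups and in all 3 collagen bins. In cells with 20000 UMIs or more they ranged from 0.21 to 0.32. In endothelial cells Rps27, Rps28 and Rps29 had ratios of 0.11, 0.12 and 0.13, and in Kupffer cells Rps29 alone of the 76 genes had a ratio above 0 (0.21), all of them under the threshold. Reads of Rps27 can be shared with its near-identical retrogene Rps27rt, which was at 26.4 and 39.4 CPM in stellate cells.

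**Figure D4:**
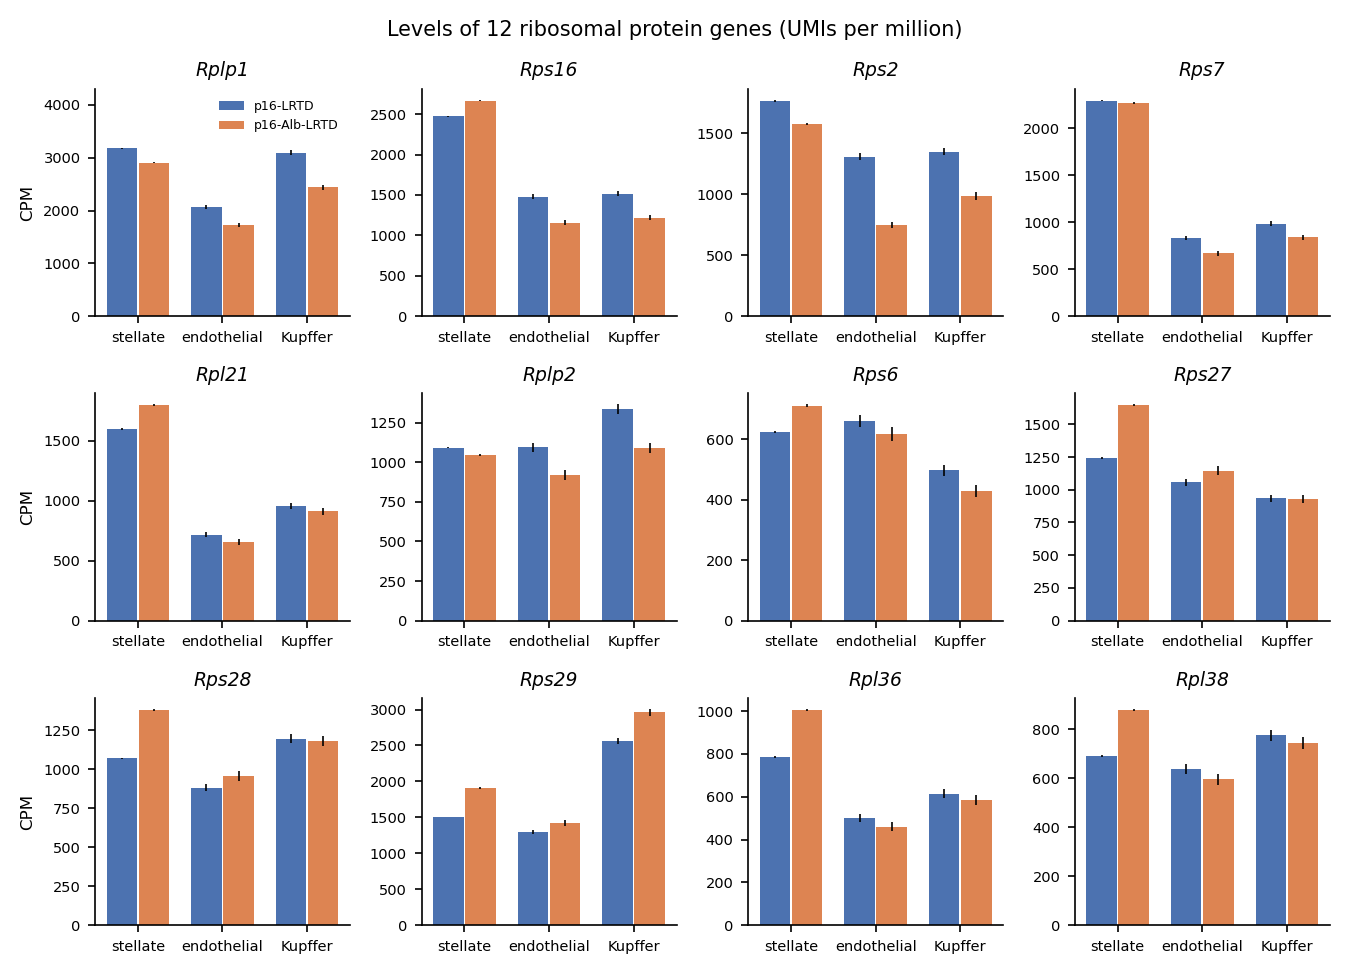
Levels in CPM (vertical axis, from 0, a scale for each gene) of 12 of the 76 genes in stellate, endothelial and Kupffer cells of p16-LRTD and p16-Alb-LRTD. Bars are summed counts over all cells of a class and error bars 95% Poisson intervals; Rps7 and Rpl21 stand highest in stellate cells, Rps29 in Kupffer cells, and the bars of p16-Alb-LRTD for Rps2 are under those of p16-LRTD in every class.

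The genes with the highest ratios encode short proteins. Of the 25 genes with coding lengths under 400 bases, 5 were higher by the threshold in stellate cells, beside 7.22% of all features, with a median log2 ratio of 0.15, and of the 51 longer ones 0 were, with a median of 0.095. Coding length and the cut at 400 bases were not planned and came after the ratios were known. The 7.22% covers features of all lengths, so it does not show how short genes in general differed. Coding lengths were 252 bases for Rps27, 207 for Rps28, 168 for Rps29, 315 for Rpl36 and 210 for Rpl38, and 879 for Rps2 and 951 for Rplp0. The Spearman correlation of coding length with the library ratio over the 76 genes was -0.35 in stellate, -0.38 in endothelial and -0.47 in Kupffer cells, and -0.42 and -0.46 with the mean endothelial to stellate and Kupffer to stellate ratios. These points share the same libraries and cells and are a description. Rpl41, the shortest at 75 bases (stellate ratio 0.044), and Rplp1, Rplp2 and Rps15a, at 342, 345 and 390 bases and all with stellate ratios below 0, did not follow this order.

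**Figure D5:**
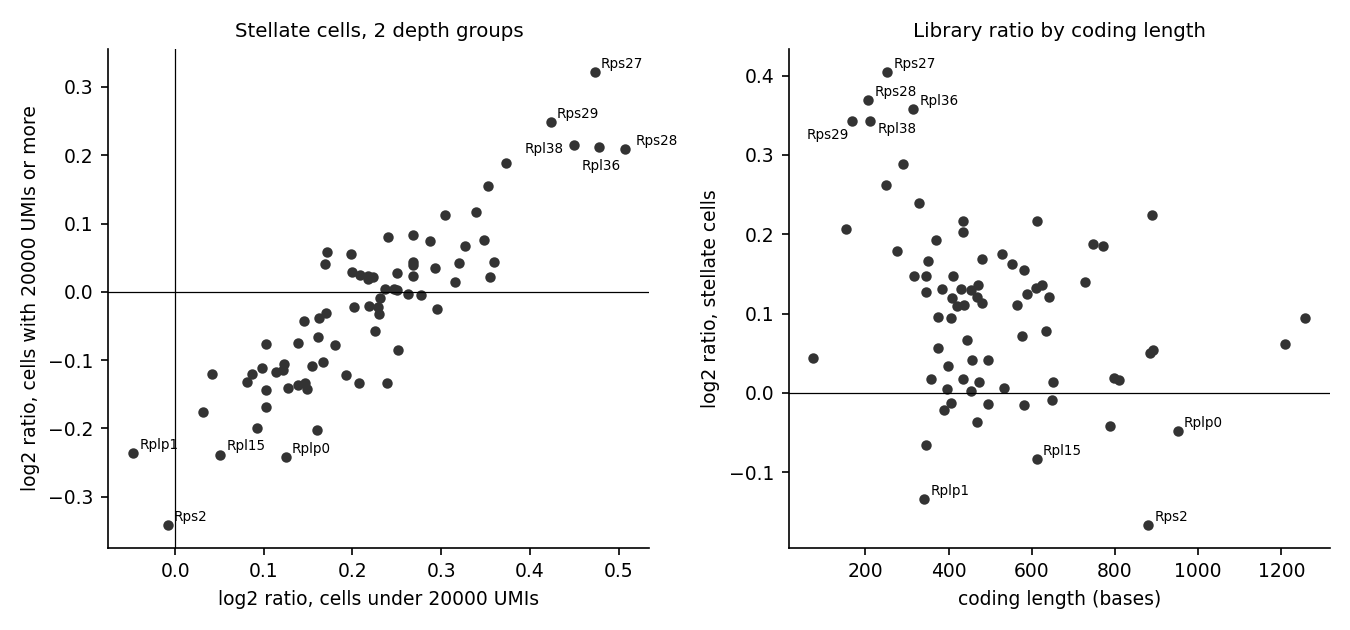
Left, log2 ratio of each gene (p16-Alb-LRTD over p16-LRTD) in stellate cells with 20000 UMIs or more (vertical axis) against cells under 20000 UMIs (horizontal axis). Right, stellate log2 ratio of each gene against its coding length in bases; the 5 genes highest in the right panel have 168 to 315 bases, and Rps2 is lowest in the right panel with 879.

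The most abundant genes differed little between the libraries. Next to Rplp1 in stellate cells came Rps16 (2471 and 2668 CPM), Rpl13 (2439 and 2574 CPM) and Rpl23 (2343 and 2528 CPM), with log2 ratios from 0.078 to 0.11. Rpl5 and Rpl11, which carry the 5S rRNA and bind Mdm2 when ribosome assembly is disturbed, were at 1032 and 1071 CPM and at 1171 and 1176 CPM. Their stellate ratios were 0.054 and 0.0057, the interval of the latter reaching from -0.0044 to 0.016. In endothelial cells Rpl5 and Rpl11 were at -0.30 and -0.37, and in Kupffer cells at -0.36 and -0.38. Rpl13a had the lowest level in all classes and both libraries (156 and 171 CPM in stellate cells). Many ribosomal protein genes have near-identical pseudogenes that can take part of their reads, so levels between genes are uncertain.

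The balance of the subunits was nearly equal in the libraries. UMIs of large subunit genes per UMI of small subunit genes were 1.244 (1.243 to 1.245) and 1.251 (1.249 to 1.252) in stellate cells, 1.18 and 1.17 in endothelial cells, and 1.22 in both libraries in Kupffer cells. The libraries thus differed less than the stellate and endothelial cells of either library. Over cells, each gene followed the sum of the others: the median Spearman correlation of a gene with the rest was 0.78 and 0.80 in stellate, 0.71 in both libraries in endothelial, and 0.74 and 0.75 in Kupffer cells. Rpl13a, a gene with few counts, had the lowest correlation in all but Kupffer cells of p16-Alb-LRTD.

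Related genes outside the rule were read from lists. Among other ribosome components, Rps3a1, Fau and Rack1, all of the small subunit, had stellate ratios of 0.13, 0.22 and 0.086, none of them past the threshold. Of the like-genes, Rpl22l1, the paralog of Rpl22, was lower in all 3 classes, at 369 and 287 CPM in stellate cells (-0.36), 241 and 157 CPM in endothelial cells (-0.61), and 336 and 209 CPM in Kupffer cells (-0.69). Rpl22 itself had ratios of 0.13, -0.19 and -0.31. Of the 5 like-genes at 5 CPM or more in stellate cells, 1 was lower and 1 higher by the threshold, beside 11% and 7.22% of all features. The higher one, Rps27rt, had ratios of 0.57, 0.49 and 0.34 in stellate, endothelial and Kupffer cells, the last with an interval from -0.058 to 0.75. Mitochondrial ribosomal proteins, which serve the separate ribosome of that organelle, had a median ratio of -0.16 in stellate cells. Of 77 at 5 CPM or more, 10 were lower and 1 higher by the threshold there, beside 11% and 7.22% of all features, so that the share of lower genes was near the background. In endothelial cells 57 of 77 were lower, beside 29%, with a median of -0.50, and in Kupffer cells 21, beside 18.8%, with a median of -0.20.

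Genes for building ribosomes were mostly lower in endothelial cells of p16-Alb-LRTD. Of 36 ribosome biogenesis genes, 33 were lower by the threshold there, beside 29% of all features, and 0 higher, beside 15.7%, with a median log2 ratio of -0.73. In stellate cells 0 of 35 were lower, beside 11%, and 2 higher, beside 7.22% (median 0.053). In Kupffer cells 8 of 36 were lower, beside 18.8%, and 3 higher, beside 12.2% (median -0.026), so that both of these classes were near or under the background. Markers of other cells and states differed between the endothelial cells of the libraries as well: collagen genes summed to 634 and 41.8 CPM, proliferation genes to 60.4 and 12.4 CPM, and lymphocyte markers to 8.94 and 0 CPM, and their part in the result was not tested. Nop58, a box C/D snoRNP protein, was at 65.5 and 27.6 CPM in endothelial cells (-1.25), and Fbl, the methyltransferase of that particle, at 77.3 and 37.8 CPM (-1.03). Myc, a transcription factor that drives ribosome production, was at 50.5 and 15.4 CPM (-1.71) in endothelial cells, 47.6 and 57.5 CPM (0.27) in stellate cells and 38.8 and 29.6 CPM (-0.39) in Kupffer cells. Of 16 translation factor genes with TOP mRNAs, 0 passed the threshold in stellate, 5 in endothelial and 2 in Kupffer cells, all of them lower, beside 29% and 18.8% of all features, so that these shares were near or under the background. Over stellate cells their summed share followed that of the ribosomal protein genes, with a Spearman correlation of 0.95 (n = 7852) and 0.94 (n = 6622). Of 19 mTOR and TOP regulators, 2 of the 18 at 5 CPM or more were higher in stellate cells, beside 7.22% of all features, and 0 lower, beside 11% (median 0.081). In endothelial cells 3 of 19 were higher, beside 15.7%, and 6 lower, beside 29% (median -0.11), and in Kupffer cells 2 were higher, beside 12.2%, and 5 lower, beside 18.8% (median -0.17), shares near the background. Ddit4, a stress-induced inhibitor of mTOR named here after its values were seen, was higher in p16-Alb-LRTD in all classes, at 9.92 and 23.7 CPM in stellate, 11.4 and 31.8 CPM in endothelial, and 12.8 and 76.2 CPM in Kupffer cells.

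Other properties of the cells differed between the libraries too. Immediate early and heat shock genes of a dissociation stress list were higher in p16-Alb-LRTD by the threshold for 14, 12 and 11 of 16 genes in stellate, endothelial and Kupffer cells, beside 7.22%, 15.7% and 12.2% of all features. Their summed level was 85.6 and 130 per 10000 UMIs in stellate cells, 49.3 and 82.3 in endothelial cells and 60.4 and 84.3 in Kupffer cells. Nuclear RNA, mostly Malat1, summed to 177 and 194.8 per 10000 UMIs in stellate cells, 61.1 and 83.7 in endothelial cells and 101 and 118 in Kupffer cells, and over stellate cells it was lower where the ribosomal protein share was higher, with Spearman correlations of -0.54 and -0.50. Mitochondrial UMIs took 2.45% and 2.15% in stellate cells. Hepatocyte genes (Alb, Apoa1, Ttr, Fgb, Apoc3 and Cyp3a11) summed to 24.1 and 16.3 CPM in stellate cells, and lymphocyte, cholangiocyte and fibroblast or mesothelial markers to at most 1.22, 0.301 and 56.4 CPM there. Proliferation genes were lower in p16-Alb-LRTD, with 131 stellate cells in p16-LRTD against 13 in p16-Alb-LRTD at 5 or more per 10000 UMIs, where the ribosomal protein share was 10.3% and 8.67%. The part of these properties in the ribosomal protein differences was not tested.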

How the data were processed

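The authors prepared 10x 3' v3.1 libraries and deposited tables of raw UMI counts, which Cell Ranger 7.0.1 made against mm10 per the labels. Whether intron reads were counted is not given in the sources used here. Groups came from the genotype label, 1 library each.

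From the deposited counts, barcodes with over 5% mitochondrial UMIs, under 2000 or over 7000 genes, or over 50000 UMIs were left out, after the study's methods. Doublets were limited only by the upper limits and by leaving out cells that met more than 1 class threshold (245 and 219); cells that met none (204 and 116) were set aside. Each gene's counts were added up within a class, with no p-value, since each genotype had 1 library. Intervals are exact conditional for ratios, Clopper-Pearson for shares and Poisson for counts, at 95%. PCR duplicates were removed by UMI. A log2 ratio beyond 0.32 among features at 5 CPM or more counts as higher or lower. Coordinates of genes are from GENCODE vM21, with coding lengths from its principal transcripts. By identifier, 31011 of 31054 features matched it.

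The 76 genes, the lists and the comparisons were chosen with earlier results of these data known. Named genes are the 5 most abundant in stellate cells, the 5 highest and 5 lowest stellate library ratios, the 3 highest and 3 lowest ratios of each class to stellate cells (ratios less the median of the 76, at 20 CPM or more), the stalk genes, Rpl5, Rpl11, and the other ribosome components and like-genes. Others, such as Rpl13a, Rpl22, Myc, Ddit4, Fbl and Nop58, were named after their values were seen. Values of some single genes are not reported here. Alternatives covered filters, thresholds, doublets, scaling, depth and collagen. Python 3.11.15, scipy 1.17.1, R 4.3.3 and edgeR 4.0.16 (TMM factors only) were used, and the ratio code was tested on simulated data.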

Additional observations from a re-analysis of the deposited data

Results flagged for a closer look

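The library difference in the ribosomal protein share had opposite signs between cell classes, with a log2 ratio of p16-Alb-LRTD over p16-LRTD of 0.10 in stellate cells, -0.20 in endothelial cells and -0.21 in Kupffer cells. The difference between the classes was not tested, since each genotype had 1 library, and the stellate ratio was -0.031 in cells with 20000 UMIs or more. The endothelial ratio was -0.031 with cells of more than 1 class kept in each and -0.069 with median-of-ratios scaling, and the Kupffer ratio was -0.14 with that scaling.

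Kept cells that lay under every class threshold entered no comparison. In these 204 and 116 cells the ribosomal protein genes took 12.95% of UMIs in p16-LRTD and 13.98% in p16-Alb-LRTD, above the share of every class. Their collagen genes summed to 111 and 86.9 per 10000 UMIs, with cell medians of 72.7 and 0.828, and the stellate check markers to 62.6 and 51.8, with cell medians of 63.2 and 5.15. The macrophage check markers summed to 13.9 and 13.6 per 10000 UMIs (cell medians 0.325 and 4.04), hepatocyte genes to 11.1 and 5.70, fibroblast or mesothelial markers to 7.15 and 4.42 (cell medians 3.04 and 0), lymphocyte markers to 0.439 and 1.18, cholangiocyte markers to 1.11 and 0.80, and endothelial check markers to 0.476 and 0.365. The cells were thus a mixed set, and no class was assigned to them.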

How the results depend on the processing

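No paired analysis was possible because there was a single library per genotype, so no replicate could be left out either. The ratios between classes kept their sign under every alternative run, and so did the endothelial and Kupffer library ratios of the share. The stellate library ratio kept its sign under 14 of 15 alternatives, and turned below 0 in cells with 20000 UMIs or more, pooled over collagen bins. The splits at 20000 UMIs and at a coding length of 400 bases were chosen after seeing the data. Scaling moved every library ratio by 0.044 (TMM) and 0.039 (median of ratios) in stellate, 0.046 and 0.13 in endothelial and 0.037 and 0.070 in Kupffer cells. Endothelial and Kupffer values rest on at most 430 cells of a library. Where a value below differs from the report the cause was not tested.

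With no filter on barcodes, the share was 9.87% (stellate, p16-LRTD), 10.5% (stellate, p16-Alb-LRTD), 6.84% (endothelial, p16-LRTD), 5.93% (endothelial, p16-Alb-LRTD), 8.5% (Kupffer, p16-LRTD) and 7.4% (Kupffer, p16-Alb-LRTD) and the library log2 ratio was 0.093 (stellate). Under it, the ratio to stellate cells was -0.53 (endothelial, p16-LRTD), -0.83 (endothelial, p16-Alb-LRTD), -0.21 (Kupffer, p16-LRTD) and -0.51 (Kupffer, p16-Alb-LRTD) and the stellate ratio of single genes turned to -8.74e-05 (Rps14). Without upper limits, the share was 9.94% (stellate, p16-LRTD), 10.6% (stellate, p16-Alb-LRTD), 5.98% (endothelial, p16-Alb-LRTD), 8.37% (Kupffer, p16-LRTD) and 7.18% (Kupffer, p16-Alb-LRTD) and the library log2 ratio was 0.094 (stellate), -0.18 (endothelial) and -0.22 (Kupffer). There, the ratio to stellate cells was -0.83 (endothelial, p16-Alb-LRTD), -0.25 (Kupffer, p16-LRTD) and -0.56 (Kupffer, p16-Alb-LRTD). With a mitochondrial limit of 10%, the share was 9.88% (stellate, p16-LRTD), 10.6% (stellate, p16-Alb-LRTD), 5.76% (endothelial, p16-Alb-LRTD), 8.14% (Kupffer, p16-LRTD) and 6.95% (Kupffer, p16-Alb-LRTD) and the library log2 ratio was -0.23 (endothelial) and -0.23 (Kupffer). In that case, the ratio to stellate cells was -0.55 (endothelial, p16-LRTD), -0.88 (endothelial, p16-Alb-LRTD) and -0.61 (Kupffer, p16-Alb-LRTD). With a lower limit of 1000 genes, the share was 6.82% (endothelial, p16-LRTD), 5.99% (endothelial, p16-Alb-LRTD), 8.33% (Kupffer, p16-LRTD) and 7.3% (Kupffer, p16-Alb-LRTD) and the library log2 ratio was -0.19 (endothelial) and -0.19 (Kupffer). At this setting, the ratio to stellate cells was -0.54 (endothelial, p16-LRTD), -0.83 (endothelial, p16-Alb-LRTD), -0.25 (Kupffer, p16-LRTD) and -0.54 (Kupffer, p16-Alb-LRTD). With doubled marker thresholds, the share was 9.84% (stellate, p16-LRTD) and 10.6% (stellate, p16-Alb-LRTD) and the library log2 ratio was 0.11 (stellate). Under it, the ratio to stellate cells was -0.55 (endothelial, p16-LRTD) and -0.27 (Kupffer, p16-LRTD). With cells of more than 1 class kept in each, the share was 9.85% (stellate, p16-LRTD), 10.5% (stellate, p16-Alb-LRTD), 7.06% (endothelial, p16-LRTD), 6.91% (endothelial, p16-Alb-LRTD), 8.12% (Kupffer, p16-LRTD) and 7.16% (Kupffer, p16-Alb-LRTD) and the library log2 ratio was 0.093 (stellate), -0.031 (endothelial) and -0.18 (Kupffer). There, the median gene ratio was -0.031 (endothelial) and the ratio to stellate cells was -0.48 (endothelial, p16-LRTD), -0.60 (endothelial, p16-Alb-LRTD) and -0.55 (Kupffer, p16-Alb-LRTD). There, the stellate ratio of single genes turned to -4.65e-04 (Rpl11) and -7.28e-04 (Rps14) and the lower genes numbered 1 (endothelial). With cells near another class left out, the share was 6.09% (endothelial, p16-Alb-LRTD), 8.5% (Kupffer, p16-LRTD) and 7.17% (Kupffer, p16-Alb-LRTD) and the library log2 ratio was -0.15 (endothelial) and -0.24 (Kupffer). In that case, the ratio to stellate cells was -0.81 (endothelial, p16-Alb-LRTD), -0.23 (Kupffer, p16-LRTD) and -0.57 (Kupffer, p16-Alb-LRTD) and the lower genes numbered 28 (Kupffer). As the mean over cells, the share was 9.69% (stellate, p16-LRTD), 10.7% (stellate, p16-Alb-LRTD), 6.78% (endothelial, p16-LRTD), 5.96% (endothelial, p16-Alb-LRTD), 7.84% (Kupffer, p16-LRTD) and 7.0% (Kupffer, p16-Alb-LRTD) and the library log2 ratio was 0.15 (stellate), -0.19 (endothelial) and -0.16 (Kupffer). At this setting, the median gene ratio was 0.16 (stellate) and -0.19 (Kupffer) and the ratio to stellate cells was -0.51 (endothelial, p16-LRTD), -0.85 (endothelial, p16-Alb-LRTD), -0.31 (Kupffer, p16-LRTD) and -0.62 (Kupffer, p16-Alb-LRTD). At this setting, the stellate ratio of single genes turned to 0.026 (Rplp0) and 0.023 (Rps7) and the lower genes numbered 5 (Kupffer). Over totals without mitochondrial and ribosomal protein genes, the share was 11.3% (stellate, p16-LRTD), 12.2% (stellate, p16-Alb-LRTD), 7.47% (endothelial, p16-LRTD), 6.47% (endothelial, p16-Alb-LRTD), 9.22% (Kupffer, p16-LRTD) and 7.86% (Kupffer, p16-Alb-LRTD) and the library log2 ratio was 0.11 (stellate), -0.21 (endothelial) and -0.23 (Kupffer). Under it, the ratio to stellate cells was -0.60 (endothelial, p16-LRTD), -0.92 (endothelial, p16-Alb-LRTD), -0.30 (Kupffer, p16-LRTD) and -0.63 (Kupffer, p16-Alb-LRTD). In cells with 10000 to 30000 UMIs, the share was 10.0% (stellate, p16-LRTD), 10.8% (stellate, p16-Alb-LRTD), 6.92% (endothelial, p16-LRTD), 5.87% (endothelial, p16-Alb-LRTD), 7.92% (Kupffer, p16-LRTD) and 6.78% (Kupffer, p16-Alb-LRTD) and the library log2 ratio was 0.10 (stellate), -0.24 (endothelial) and -0.22 (Kupffer). There, the ratio to stellate cells was -0.53 (endothelial, p16-LRTD), -0.87 (endothelial, p16-Alb-LRTD), -0.34 (Kupffer, p16-LRTD) and -0.67 (Kupffer, p16-Alb-LRTD). With equal shares of the collagen bins, the share was 9.4% (stellate, p16-LRTD) and 10.9% (stellate, p16-Alb-LRTD) and the library log2 ratio was 0.21 (stellate). In that case, the median gene ratio was 0.21 (stellate) and the ratio to stellate cells was -0.48 (endothelial, p16-LRTD), -0.89 (endothelial, p16-Alb-LRTD), -0.20 (Kupffer, p16-LRTD) and -0.62 (Kupffer, p16-Alb-LRTD). In that case, the stellate ratio of single genes turned to 0.083 (Rpl15), 0.17 (Rplp0), 0.036 (Rplp2) and 0.072 (Rps7) and the higher genes numbered 14 (stellate). In cells under 20000 UMIs, the share was 9.65% (stellate, p16-LRTD), 11.2% (stellate, p16-Alb-LRTD), 6.93% (endothelial, p16-LRTD), 6.02% (endothelial, p16-Alb-LRTD), 7.57% (Kupffer, p16-LRTD) and 6.3% (Kupffer, p16-Alb-LRTD) and the library log2 ratio was 0.21 (stellate) and -0.26 (Kupffer). At this setting, the median gene ratio was 0.22 (stellate) and the ratio to stellate cells was -0.48 (endothelial, p16-LRTD), -0.89 (endothelial, p16-Alb-LRTD), -0.35 (Kupffer, p16-LRTD) and -0.83 (Kupffer, p16-Alb-LRTD). At this setting, the stellate ratio of single genes turned to 0.051 (Rpl15), 0.12 (Rplp0), 0.031 (Rplp2) and 0.081 (Rps7) and the higher genes numbered 12 (stellate). At this setting, the lower genes numbered 35 (Kupffer). In cells with 20000 UMIs or more, the share was 10.3% (stellate, p16-LRTD), 10.0% (stellate, p16-Alb-LRTD), 6.45% (endothelial, p16-LRTD), 5.57% (endothelial, p16-Alb-LRTD), 8.52% (Kupffer, p16-LRTD) and 7.23% (Kupffer, p16-Alb-LRTD) and the library log2 ratio was -0.031 (stellate), -0.21 (endothelial) and -0.24 (Kupffer). Under it, the median gene ratio was -0.021 (stellate) and the ratio to stellate cells was -0.67 (endothelial, p16-LRTD), -0.27 (Kupffer, p16-LRTD) and -0.47 (Kupffer, p16-Alb-LRTD). Under it, the stellate ratio of single genes turned to -0.14 (Rpl11), -0.031 (Rpl13), -0.021 (Rpl23), -0.12 (Rpl41), -0.066 (Rpl5) and -0.11 (Rps14) and the higher genes numbered 1 (stellate). Under it, the lower genes numbered 1 (stellate) and 24 (Kupffer). With TMM scaling, the share was 10.6% (stellate, p16-LRTD), 11.7% (stellate, p16-Alb-LRTD), 5.93% (endothelial, p16-LRTD), 5.34% (endothelial, p16-Alb-LRTD), 8.38% (Kupffer, p16-LRTD) and 7.44% (Kupffer, p16-Alb-LRTD) and the library log2 ratio was 0.14 (stellate), -0.15 (endothelial) and -0.17 (Kupffer). There, the median gene ratio was 0.16 (stellate) and the ratio to stellate cells was -0.84 (endothelial, p16-LRTD), -1.13 (endothelial, p16-Alb-LRTD), -0.34 (Kupffer, p16-LRTD) and -0.65 (Kupffer, p16-Alb-LRTD). There, the stellate ratio of single genes turned to 0.028 (Rps7) and the lower genes numbered 10 (endothelial) and 9 (Kupffer). With median-of-ratios scaling, the share was 9.92% (stellate, p16-LRTD), 10.9% (stellate, p16-Alb-LRTD), 5.93% (endothelial, p16-LRTD), 5.65% (endothelial, p16-Alb-LRTD), 8.61% (Kupffer, p16-LRTD) and 7.82% (Kupffer, p16-Alb-LRTD) and the library log2 ratio was 0.14 (stellate), -0.069 (endothelial) and -0.14 (Kupffer). In that case, the median gene ratio was 0.15 (stellate), -0.089 (endothelial) and -0.17 (Kupffer) and the ratio to stellate cells was -0.74 (endothelial, p16-LRTD), -0.95 (endothelial, p16-Alb-LRTD), -0.20 (Kupffer, p16-LRTD) and -0.48 (Kupffer, p16-Alb-LRTD). In that case, the stellate ratio of single genes turned to 0.023 (Rps7) and the lower genes numbered 5 (endothelial) and 4 (Kupffer). With a fold of 1.5, the higher genes numbered 0 (stellate) and the lower genes numbered 1 (endothelial) and 0 (Kupffer).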

Other observations

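Rpl39l, the testis-enriched paralog of Rpl39, was found in few Kupffer cells, with 82 UMIs in 6 of 273 cells of p16-LRTD, 38 of them in 1 cell, and 6 UMIs in 2 of 175 cells of p16-Alb-LRTD. Rpl10l, a retrogene of Rpl10, had 0 UMIs in the 3 classes of both libraries. Rps27l, the p53-inducible paralog of Rps27, had log2 ratios of p16-Alb-LRTD over p16-LRTD of -0.18 in stellate, -0.67 in endothelial and -0.16 in Kupffer cells, while Rps27 stood at 0.40, 0.11 and -0.0093. Of the 9 ribosomal protein pseudogenes in the feature list, 6 reached 5 CPM in stellate cells, with 1 higher by a log2 ratio of 0.32, beside 7.22% of all features, and 0 lower, beside 11%.

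Cells that met more than 1 class threshold had ribosomal protein shares of 7.61% in both libraries (245 and 219 cells), below the stellate share. Barcodes left out by the filters had shares of 9.18% in p16-LRTD and 8.16% in p16-Alb-LRTD.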
